A study of Drosophila melanogaster with 3 samples.

Results

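The 10 genes described here encode the proteins that carry and terminate the light response of fly photoreceptors downstream of the opsins. They are Arr1, Arr2, norpA, trp, trpl, inaD, inaC, ninaC, Gbeta76C and rdgA, taken by symbol through the fly annotation, with the opsins left out. All 10 had a value, among 11922 genes in all. RNA came from 3 libraries of AKHR+ neurons, which carry the receptor of the hunger hormone AKH, in flies that carried nSyb-AD-AKHR-BD-GAL4;UAS-mCD8gfp aged 5 days and raised on normal food. In this split-GAL4 design the membrane-bound GFP is made only where the neuronal nSyb and the AKHR promoters are both active, and GFP-marked cells were drawn from dissected brains by pipette. The libraries form a single group without a control and are called cells 1, 2 and 3, although the labels also speak of pooling cells. A lower value may thus reflect fewer cells of a type or less RNA per cell, which cannot be told apart here.

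In the fly eye, light-activated rhodopsin switches on a Gq protein, which activates a phospholipase C. Hydrolysis of the membrane lipid PIP2 then opens the TRP and TRPL cation channels, and arrestin binding shuts rhodopsin off. Several of these proteins are held together by a PDZ scaffold in the light-sensing microvilli. Most are known as eye-enriched proteins.

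Expression was given as FPKM, in which the fragments of a gene are scaled by exon length and by the mapped fragments of the library. Levels were compared between genes within a cell on this scale. Effects of amplification and of transcript length on these comparisons were not tested. The summed FPKM per cell lay between 492248 and 539862. Between 4969 and 6337 genes were above 0, and their median FPKM was 31.0, 21.7 and 23.4 in cells 1, 2 and 3. The number of fragments behind each value is unknown. All 4 neuronal markers (elav, Syt1, brp and Syx1A) had an FPKM of at least 1 in every cell, against 31.1% of all genes. So did 3 of the 4 glial markers analysed, whose values are given below. AkhR, the gene whose promoter marked the cells, stood at 14.7, 1.90 and 2.52. Tdc2 and Tbh, which encode octopamine-producing enzymes, had values above 1 in cells 2 and 3 and stood at 0 in cell 1. Vmat, also listed as a marker of the labelled cells, had 154, 71.2 and 95.4 and was highest in cell 1. Nothing in the labels tells whether the libraries came from separate flies.

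Every phototransduction gene was detected in every cell. At an FPKM of at least 1, 10 of the 10 genes were detected in each cell, against 36.8%, 50.7% and 47.2% of all genes in cells 1, 2 and 3. In all 3 cells at once, 10 of 10 were detected, against 31.1% of all genes. At an FPKM of at least 10 in all cells, the count was 7 of 10, against 20.6% of all genes. The 3 that missed this level in at least 1 cell were trpl, Gbeta76C and rdgA. The lowest of the 30 values was an FPKM of 2.52, for trpl in cell 3.

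**Figure D1:**
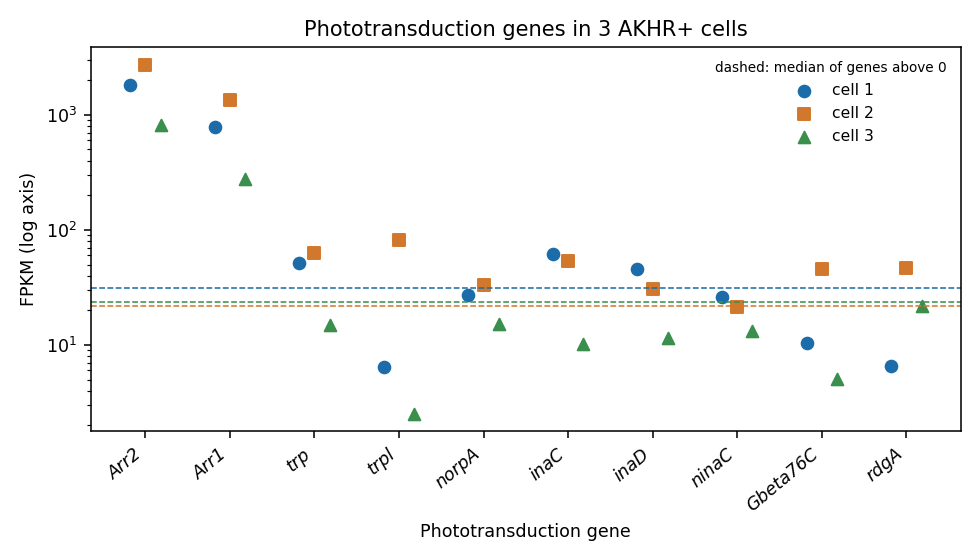
FPKM of the 10 phototransduction genes (log axis), with a point for each of the 3 cells and dashed lines at the median of the genes above 0 in each cell (31.0, 21.7 and 23.4 in cells 1, 2 and 3). Arr2 and Arr1 lie between 277 and 2722, and the other genes lie at or below 82.4.

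The arrestins stood far above the rest. Arr2, the more abundant arrestin of the eye, had an FPKM of 1816, 2722 and 810.4 in cells 1, 2 and 3 (mean 1783 ± 956, SD, n = 3). Arr1, which also takes part in rhodopsin internalization, had 789.7, 1335 and 277 (mean 800.5 ± 529). Both were highest in cell 2 and lowest in cell 3. Without cell 2 the mean of Arr1 was 533. Ranked among all genes of a cell, Arr2 lay at the 99.8, 99.9 and 99.3 percentiles and Arr1 at the 99.3, 99.5 and 97.5 percentiles. Arr2 exceeded the highest of the 8 other phototransduction genes 29.6-fold, 33.0-fold and 37.1-fold in FPKM in cells 1, 2 and 3, and Arr1 exceeded it 12.9-fold, 16.2-fold and 12.7-fold. On the annotation BDGP6, Arr2 (FBgn0000121) lies on chromosome 3L from 8647261 to 8648936 on the minus strand. Arr1 (FBgn0000120) lies on chromosome 2L from 18078269 to 18081307 on the plus strand. Neither shares exon bases with another annotated gene.

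The 10 genes took 0.577%, 0.858% and 0.219% of the summed FPKM in cells 1, 2 and 3 (mean 0.551% ± 0.320, SD, n = 3). Of that sum, the arrestins made up 91.7%, 91.5% and 92.0%. The share of the 10 genes thus differed widely between cells, while the arrestin part of it differed by less than 1 percentage point. The 8 other genes together took 0.0478%, 0.0730% and 0.0175% of the summed FPKM.

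It was then asked how the cation channels compared. The channel gene trp (FBgn0003861, chromosome 3R from 29914521 to 29920289, minus strand), which encodes the main light-activated calcium channel, had an FPKM of 51.8, 63.4 and 14.9 in cells 1, 2 and 3 (mean 43.4 ± 25.3, SD, n = 3). Its relative trpl (FBgn0005614, chromosome 2R from 9753697 to 9765518, plus strand), a less calcium-selective channel, had 6.46, 82.4 and 2.52 (mean 30.5 ± 45.0). The value of trpl in cell 2 was high and those in the other cells were low. Without cell 2 its mean FPKM was 4.49. In cell 2 trpl was the third most abundant of the 10 genes, and in cells 1 and 3 it was the least abundant.

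The phospholipase C gene norpA (FBgn0262738, chromosome X from 4322626 to 4365408, plus strand), whose product hydrolyses PIP2, had an FPKM of 27.1, 33.4 and 15.3 (mean 25.2 ± 9.19, SD, n = 3). The gene inaC (FBgn0004784, chromosome 2R from 16898535 to 16901575, plus strand), which encodes the eye protein kinase C, had 61.3, 53.5 and 10.3 (mean 41.7 ± 27.5). The PDZ scaffold gene inaD (FBgn0001263, chromosome 2R from 22855688 to 22858794, minus strand) had 45.8, 30.6 and 11.4 (mean 29.3 ± 17.2). Cell 3 had the lowest value of each of these genes. The end of inaD shares 7 exon bases with the ribosomal protein gene RpL23 on the opposite strand, which is 0.300% of its exon bases.

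The gene ninaC (FBgn0002938, chromosome 2L from 7377702 to 7384344, plus strand), which encodes a myosin III with a kinase domain, had an FPKM of 25.95, 21.6 and 13.3 (mean 20.3 ± 6.43, SD, n = 3). It varied least of the 10 genes between cells, with 1.95-fold between its highest and lowest FPKM. TRP, the norpA product, INAC and NINAC are all known to bind the INAD scaffold. Within a cell their 5 genes ranged from 26.0 (ninaC) to 61.3 (inaC) in cell 1, from 21.6 (ninaC) to 63.4 (trp) in cell 2, and from 10.3 (inaC) to 15.3 (norpA) in cell 3. The FPKM of the highest of the 5 was 2.36, 2.94 and 1.48 times that of the lowest.

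Gbeta76C (FBgn0004623, chromosome 3L from 19687637 to 19689992, plus strand), the G protein beta subunit of the photoreceptor, had an FPKM of 10.5, 45.8 and 5.05 in cells 1, 2 and 3 (mean 20.4 ± 22.1, SD, n = 3). The diacylglycerol kinase gene rdgA (FBgn0261549, chromosome X from 8907068 to 9029476, plus strand), whose product removes the lipid released by phospholipase C, had 6.52, 46.6 and 21.8 (mean 24.97 ± 20.2). Without cell 2 these means were 7.76 for Gbeta76C and 14.2 for rdgA. Alone among the 10 genes, rdgA was lowest in cell 1. The gene has 11 annotated transcripts, the most of the 10, and its FPKM depends on the exon length that the quantification used.

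By the mean over cells, the order of levels was Arr2, Arr1, trp, inaC, trpl, inaD, norpA, rdgA, Gbeta76C and ninaC. Arr2 and Arr1 had ranks 1 and 2 in each cell. Below them the neighbours in the order differed by less than their SD between cells, and their order changed from cell to cell. Against all genes, genes at 0 included, the mean percentile of the 10 had a median of 75.97 and lay between 72.0 (Gbeta76C) and 99.7 (Arr2). When only genes above 0 in a cell were ranked, the median went to 49.6. Set against the median of the genes above 0, of the 8 genes other than the arrestins 3 lay above it in cell 1, 7 in cell 2 and 0 in cell 3.

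Cell 3 held the lowest value of most of these genes. Of the 10, 9 were lowest in cell 3, against 27.4% of the 4300 genes that were above 0 in all 3 cells. The highest value lay in cell 2 for 7 genes, against 33.3% of those 4300 genes, and in cell 1 for inaC, inaD and ninaC. The median of cell 2 minus cell 3 was 1.88 on the scale of log2(FPKM + 1) for the 10 genes, against -0.03 for the 4300 genes. For cell 1 minus cell 3 it was 1.12, against -0.11. Each cell is a single library, so these differences between cells have no replicate check and carry no test.

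**Figure D2:**
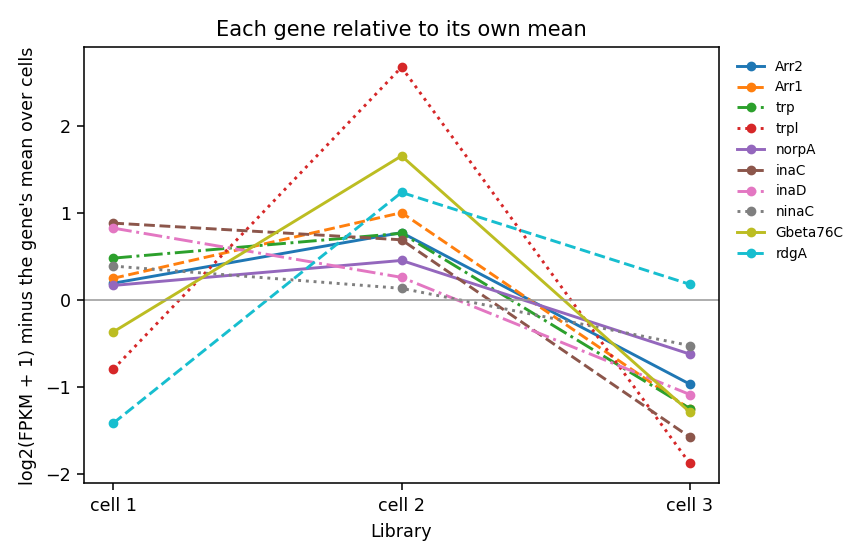
log2(FPKM + 1) of each phototransduction gene minus its own mean over cells 1, 2 and 3, with a line for each gene. In cell 3, 9 of the 10 lines are at their lowest, and rdgA is lowest in cell 1.

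The spread between cells was set against that of other genes. The range between the highest and the lowest cell on the scale of log2(FPKM + 1) had a median of 2.14 over the 10 genes, against 1.94 over the 4113 genes at an FPKM of at least 10 in at least 2 cells, a set that holds 9 of the 10 and leaves out trpl. It was smallest for ninaC (0.92) and norpA (1.08). It was 1.75 for Arr2 and 2.26 for Arr1, and the largest was 4.57 for trpl. In FPKM, trpl differed 32.7-fold between cells 2 and 3.

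Markers of eye cells were examined beside these values. Of the 5 other photoreceptor markers (chp, eys, Pph13, gl and oc), 3 were detected in every cell, against 31.1% of all genes. Their summed FPKM was 43.8, 95.2 and 11.2 in cells 1, 2 and 3. In cells 1 and 2 it was mainly chp, and in cell 3 eys was the highest of them. The gene chp, which encodes the photoreceptor adhesion protein chaoptin, had an FPKM of 24.3, 70.5 and 3.33, and eys, which encodes the protein that opens the space between rhabdomeres, had 11.8, 19.6 and 5.01. The transcription factor gene oc had 7.60, 5.04 and 2.41. All 3 were lowest in cell 3, and chp and eys were highest in cell 2 but oc in cell 1. The transcription factor gene Pph13 was listed at 0 in all cells, and gl at 0, 0 and 0.450. Of the histamine markers, histamine being the transmitter of photoreceptors, Hdc was at 0, 2.78 and 11.0 and t at 3.73, 6.63 and 10.4. Hdc and t were thus highest in cell 3, where 9 of the 10 phototransduction genes were lowest. CarT and Lovit, also on the histamine list, were not analysed.

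The 2 lens genes analysed, Cpr72Ec and retinin, summed to 371, 55.0 and 26.3, mostly through retinin at 303.5, 54.7 and 26.3. Of the 5 pigment cell markers (w, st, bw, cn and v), 0 were detected in every cell, against 31.1% of all genes. Their sum was 2.75, 14.7 and 7.20, and in cell 2 it was mostly v, at 13.4. Among these, st was listed at 0 in all cells and w at 0 in cells 1 and 2. The 4 neuronal markers summed to 813, 679.8 and 584, and the 4 glial markers analysed (repo, wrapper, Gs2 and moody) to 1110.3, 1039 and 1047. These sums rested mainly on Syx1A, Syt1, wrapper and Gs2. In each list 3 of 4 markers were highest in cell 2, against 33.3% of the 4300 genes above 0 in all cells. The glial transcription factor gene repo had an FPKM of 3.77, 51.5 and 9.63, and moody, a receptor gene of the glia that form the blood-brain barrier, had 4.54, 50.1 and 0.613. The neuronal RNA-binding protein gene elav had 4.36, 54.6 and 50.1. Thus repo and moody were highest in cell 2, as was Gs2, at 370, 615 and 469. The glial marker wrapper, at 732, 323 and 568, was instead lowest in cell 2 and highest in cell 1. Of the glial markers, only moody was lowest in cell 3. The part of RNA from other cells in the phototransduction values was not tested.

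Next, log2(FPKM + 1) was compared within each cell between related genes. In 6 pairs a gene of the cascade was set against a relative outside the 10 genes, and in the pairs of arrestins and of channels both genes were of the 10. The 8 pairs analysed were tested over the 3 cells by exact permutation of the signs of the differences, two-sided. The smallest p this allows is 0.25, so no pair could reach 0.05. The p-values were adjusted over the 8 pairs by the Benjamini-Hochberg method. Of the 8 pairs, 5 had the same direction in every cell, which were 4 of the 6 pairs with an outside relative and the arrestin pair. Of those 4, the comparisons of Arr1 and Arr2 share krz.

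Arr2 exceeded Arr1 in 3 of 3 cells, by 1.20, 1.03 and 1.54 on the log2 scale in cells 1, 2 and 3 (mean 1.26 ± 0.26, SD, n = 3; exact permutation p = 0.25, adjusted 0.40). In FPKM, Arr2 was 2.30, 2.04 and 2.92 times Arr1. The SD of this difference, 0.26, was smaller than the SD of either gene between cells on the same scale, 0.89 for Arr2 and 1.15 for Arr1. The channel genes did not keep 1 direction. The gene trp exceeded trpl by 2.82 in cell 1 and 2.18 in cell 3 and differed from it by -0.37 in cell 2 (mean 1.54 ± 1.69, exact permutation p = 0.50, adjusted 0.67). The mean difference was 2.50 without cell 2 and 0.90 without cell 1.

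The non-visual arrestin gene krz was listed at 0 in cell 1 and had an FPKM of 1.93 and 30.5 in cells 2 and 3. Arr2 exceeded it in 3 of 3 cells (mean difference 8.46 ± 3.30, SD, n = 3), and Arr1 did so too (7.20 ± 3.53). Each had an exact permutation p of 0.25, adjusted 0.40. The difference was smallest in cell 3, at 4.69 for Arr2 and 3.15 for Arr1, where krz was highest and the arrestins were lowest. The mean differences for Arr2 and Arr1 were 7.27 and 5.99 without cell 1, 7.76 and 6.39 without cell 2, and 10.3 and 9.23 without cell 3. With a pseudocount of 0.1 they were 9.76 and 8.50.

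Gbeta76C went the other way. The widely used beta subunit gene Gbeta13F had an FPKM of 354, 344 and 427, and Gbeta76C came to 2.96%, 13.3% and 1.18% of it in cells 1, 2 and 3. The difference, Gbeta76C minus Gbeta13F, was negative in 3 of 3 cells (mean -4.66 ± 1.65, SD, n = 3; exact permutation p = 0.25, adjusted 0.40). It was -4.51 without cell 1, -5.55 without cell 2 and -3.92 without cell 3. Among the 8 pairs this was the only one in which the first gene was lower in every cell.

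The gene rdgA exceeded Dgk, another diacylglycerol kinase gene, in 3 of 3 cells, by 2.91, 1.90 and 0.85 (mean 1.89 ± 1.03, SD, n = 3; exact permutation p = 0.25, adjusted 0.40). Dgk was listed at 0 in cell 1, and the mean difference went to 2.98 with a pseudocount of 0.1. Of the exon bases of Dgk, 10.1% are shared with Atg10 on the opposite strand, and whether strand was used in counting is not stated.

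The last pairs had no common direction. Plc21C, the other phospholipase C beta gene, had an FPKM of 0.183, 45.4 and 17.2, and norpA was higher than it in 1 of 3 cells (mean difference 1.33 ± 2.82, exact permutation p = 1.0, adjusted 1.0). Pkc53E, which lies near inaC on chromosome 2R, had 15.5, 30.3 and 38.3, and inaC was higher in 2 of 3 cells (mean difference 0.30 ± 1.91, exact permutation p = 0.75, adjusted 0.86). Both mean differences changed sign without cell 1, to -0.30 for norpA and -0.50 for inaC. The norpA difference was 2.20 without cell 2, 2.07 without cell 3 and 1.99 with a pseudocount of 0.1, and the inaC difference was 0.06 without cell 2 and 1.36 without cell 3. How reads shared by related genes were treated is not stated.

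**Figure D3:**
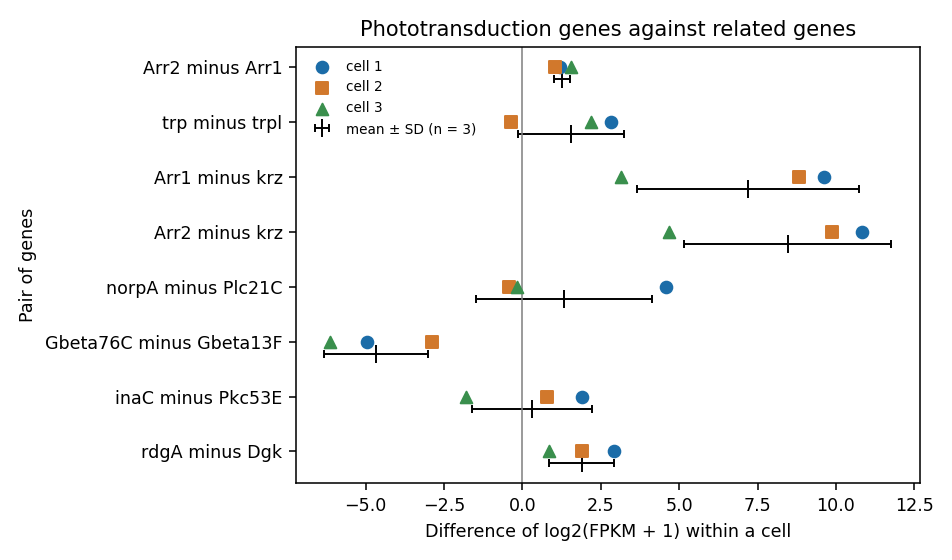
Within-cell difference of log2(FPKM + 1) between a phototransduction gene and a related gene for 8 pairs, with a point for each cell and the mean ± SD (n = 3) drawn under the points. The points of Arr2 minus Arr1 lie between 1.03 and 1.54, and all points of Gbeta76C minus Gbeta13F lie below 0.

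Other genes of phototransduction and the visual cycle were taken from a list of 21. Of these, 16 were analysed, and Galphaq, rtp, Trpgamma, Xport-A and Xport-B were not analysed here. At an FPKM of at least 1 in all cells, 11 of the 16 were detected, against 31.1% of all genes. At an FPKM of at least 10 in all cells, 7 of the 16 were, against 20.6% of all genes. The 11 include Cds and Pis, whose products serve all cells. Of the 5 not detected in every cell, 3 (rdgC, laza and ninaG) were detected in 2 cells and 2 (ninaD and stops) in 1 cell. Of the 12 that were above 0 in every cell, 5 were lowest in cell 3 and 4 were highest in cell 2, against 27.4% and 33.3% of the 4300 genes above 0 in all cells.

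The highest of the partner genes were Cam, which encodes the calcium sensor calmodulin, with a mean FPKM of 1753 ± 233 (SD, n = 3), and Ggamma30A, the gamma subunit that pairs with Gbeta76C in the eye, with 1260.3 ± 169.8. Ggamma30A had 1445, 1226 and 1110.3 in cells 1, 2 and 3 and so stood above Gbeta76C in every cell. Both were more even between cells than the arrestins, with ranges of 0.37 (Cam) and 0.38 (Ggamma30A) on the scale of log2(FPKM + 1).

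Genes of the turnover of PIP2 and its products were at high and low levels. Cds, which encodes CDP-diacylglycerol synthase, had an FPKM of 391, 249 and 234, and Pis, which encodes phosphatidylinositol synthase, had 183, 285 and 407. Both enzymes serve membrane lipid synthesis in all cells. The phosphatidylinositol transfer protein gene rdgB had 2.82, 41.6 and 13.5, lowest in cell 1 and highest in cell 2. The lipid phosphatase gene laza was listed at 0, 4.82 and 2.32, and the diacylglycerol lipase gene inaE had 3.68, 12.8 and 6.98.

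Among genes that end or tune the response, inaF-B, whose product is needed for TRP function, had an FPKM of 60.2, 38.6 and 22.9. The rhodopsin phosphatase gene rdgC had 6.82, 8.88 and 0.791, and the sodium-calcium exchanger gene Calx had 9.42, 13.3 and 1.68. All 3 were lowest in cell 3. The gene stops, whose product maintains the norpA enzyme, was listed at 0 in cells 1 and 3 and had 16.8 in cell 2.

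Genes of chromophore supply and opsin folding had their highest values in different cells. The scavenger receptor gene santa-maria, which serves carotenoid uptake, had an FPKM of 106, 151 and 203 in cells 1, 2 and 3, and the carotenoid-cleaving enzyme gene ninaB had 22.8, 26.1 and 64.7. Both were highest in cell 3. A second scavenger receptor gene, ninaD, was listed at 0 in cells 1 and 2 and had 26.1 in cell 3. The opsin chaperone gene ninaA had 105.6, 6.03 and 29.0 and was lowest in cell 2, and ninaG, an oxidoreductase gene of chromophore synthesis, had 0, 32.2 and 14.5.

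**Figure D4:**
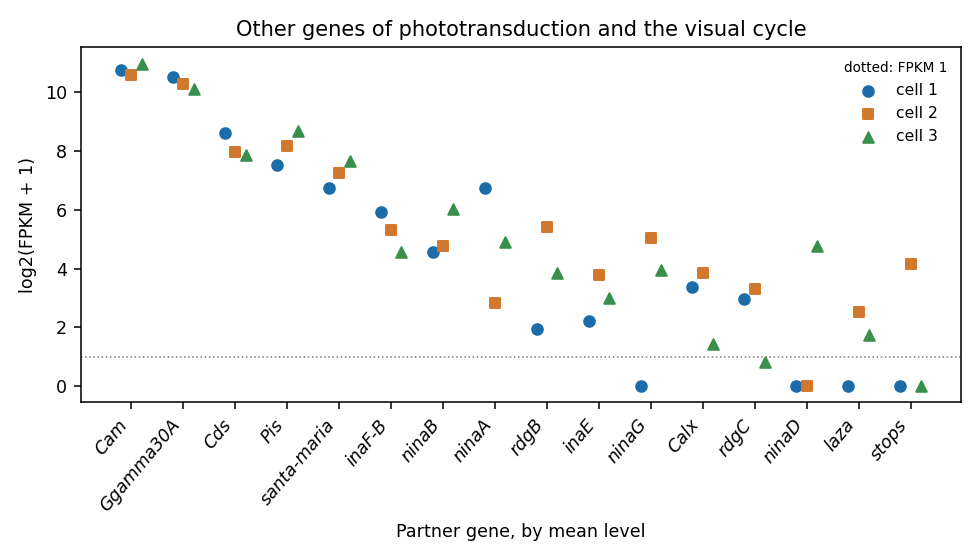
log2(FPKM + 1) of the 16 partner genes analysed, ordered by their mean, with a point for each of cells 1, 2 and 3 and a dotted line at an FPKM of 1. Cam and Ggamma30A lead with mean FPKM of 1753 and 1260.3, and stops, laza, ninaD and ninaG have points at 0.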

How the data were processed

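RNA of picked cells was amplified by a SMART-type protocol. The authors trimmed the reads, aligned them to the fly genome (HISAT is the tool named in the submitters' processing notes), kept mapped reads and deposited FPKM per gene. Quantifier, build and annotation are not given in the sources used here. Values of repeated gene IDs were averaged, which touched none of the 10 genes. Symbols, coordinates and exon overlaps came from BDGP6.54 (Ensembl release 115) by FlyBase ID, and 128 of 11922 IDs had no symbol. FPKM was analysed as log2(FPKM + 1), which understates differences of low genes. A percentile is the rank of a gene among all genes of its cell, ties averaged. Detection meant an FPKM of at least 1. Values are not counts, and no count model was used. A search for the FPKM worth of 1 fragment placed at best 61.5%, 43.9% and 54.7% of low values within 0.1 of whole multiples in cells 1, 2 and 3. Steps that did about as well lay within 1.02-fold of each other in cell 1. In cells 2 and 3 they lay up to 2.05-fold and 4.03-fold apart. Since many low values lay off whole multiples in every cell, depth is taken as unknown and no counting interval is given. PCR copies count as fragments, since no molecular identifiers are described.

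The members and lists were chosen with earlier results of these data known. All 10 members are named, as are genes of the partner and marker lists, and no gene was named for likeness of pattern over only 3 cells. Of 10 gene pairs, 8 were tested, since Trpgamma was not analysed. Results were recomputed without each cell, with 0.1 as the pseudocount, with a higher and a lower detection limit, after scaling cells to a sum of 1000000, and with repeated IDs summed. Python 3.11.15, numpy 2.4.6, pandas 2.3.3 and matplotlib 3.10.9 were used. The test was run on constructed gene pairs whose difference was the same in every cell. That run checks the arithmetic only, not how the test behaves when differences vary between cells.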

Additional observations from a re-analysis of the deposited data

How the results depend on the processing

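Over 32 results, 139 alternative values were computed, of which 127 were labelled the same, 10 moved and 2 reversed. Pair differences were the same if they kept their direction, and counts if they changed by no more than a set fold. Other values were the same if they changed by less than the SD between cells. By this rule a fall from 10 to 7 genes was labelled the same. The count of 10 genes detected in all cells stayed at 10 without any single cell and with any FPKM above 0. It was 7 at an FPKM of at least 10, against 20.6% of all genes. The partner genes detected in all cells numbered 7 of 16 at an FPKM of at least 10, against the same share of all genes. They numbered 11 to 13 without any 1 cell, and the share of all genes was not computed for these settings. The median percentile went to 49.6 among genes above 0 only. Scaling cells to a common sum multiplied all genes of a cell by 1 factor and gave means of 1566 (Arr1), 3485 (Arr2), 49.3 (norpA), 85.2 (trp), 57.8 (inaD), 82.4 (inaC), 39.7 (ninaC) and 47.9 (rdgA). The difference of norpA and Plc21C lay between -0.30 and 2.20 when single cells were omitted, and that of inaC and Pkc53E between -0.50 and 1.36. Both reversed without cell 1, and the cause was not tested. With 3 cells no sign-flip test could reach 0.05, so an unchanged side of the threshold shows no stability. With a single group, samples could not be paired across groups, and the only pairing was of genes within a cell.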

Other observations

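The opsin ninaE, which the arrestins bind as rhodopsin, had an FPKM of 1217, 3838 and 1626 in cells 1, 2 and 3. In FPKM, Arr2 was 1.49, 0.709 and 0.498 times ninaE, and Arr1 was 0.649, 0.348 and 0.171 times ninaE. Both ratios were highest in cell 1 and lowest in cell 3, and they are given as values of single libraries. Of the 6 opsin genes above 0 in every cell, 2 were lowest in cell 3, against 27.4% of the 4300 genes above 0 in all cells.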
